A study of Komagataella pastoris with 12 samples.

Results

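The genes described here are the transcription factor genes of the yeast Komagataella phaffii, chosen by a pattern on the gene descriptions of the deposited expression table. A row was taken when its description named a transcription factor, a transcriptional activator, repressor or regulator, a zinc finger or a zinc cluster, and did not name TFII, RNA polymerase, mating, meiosis, chromatin, histones, SAGA, rRNA or ubiquitin. This gave 88 genes of the 5080 transcripts in the table, 5040 of them annotated genes. The pattern used no measured value, but it was set with earlier results of these data known. RNA was sequenced from a parent and from an evolved strain, G14, both grown in YPD medium to the logarithmic phase at 30 °C or at 37 °C. The parent, labelled wild type, was a recombinant GS115 strain that carries a lipase gene. G14, labelled evolved, was a single isolate obtained from this parent by mutagenesis and adaptive evolution at rising temperature, so it carries the lipase gene too. Strain and temperature together gave 4 groups (Parent_30, Parent_37, G14_30, G14_37) of 3 libraries each, which the study's methods call biological replicates. The labels give the organism as Komagataella pastoris. Since G14 was 1 isolate, its differences from the parent are those of 1 strain.

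A sequence-specific transcription factor binds short DNA motifs near the genes it controls and raises or lowers their transcription, often together with partner proteins. Yeasts use families of such factors named after their DNA-binding fold, among them zinc clusters, C2H2 zinc fingers, basic leucine zippers (bZIP), GATA fingers, homeodomains, forkheads and heat shock factors. Many of them are controlled after transcription, by transport into the nucleus, phosphorylation or splicing, so the level of a factor's RNA is not a measure of its activity.

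Members were described in the table by family or by role. By family there were 10 zinc cluster genes, 22 other zinc finger genes, 3 bZIP and 3 homeodomain genes. There were also 2 basic helix-loop-helix (bHLH), 2 forkhead, 1 GATA and 1 heat shock factor gene. The other 44 had a description that matched none of these families. By role, 7 descriptions named stress, 6 nitrogen or amino acids, 3 carbon sources, 3 the cell cycle, 2 metals, 1 ribosome biogenesis and 1 pseudohyphal growth, while 65 members had no role of this kind. The label was not right for all of them. In 11 members the description named another function, such as the TATA-binding protein, 3 subunits of the CCR4-NOT complex, a cleavage and polyadenylation factor and 2 splicing proteins. Conversely, 41 members carried 1 of 15 domain labels of DNA-binding folds in the table, and 53 further genes carried such a label but had a description that the pattern did not match. The genes lay on all chromosomes, with 25 on chromosome 1, 20 on chromosome 2, 23 on chromosome 3 and 20 on chromosome 4.

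Values are FPKM, fragments scaled to the length of the gene and to a total for the library, which can be compared between genes because length is divided out. That total was not the sum of the library's fragments. It was 0.84 to 0.93 times that sum in the parent libraries and 1.07 to 1.27 times in the G14 libraries. The scaling behind the strain contrasts thus differed between the strains. Fragments per library lay between 13428637 and 22047040, and no member had fewer than 59 fragments in any library. Fold changes are differences of group means on the log2(FPKM + 1) scale, fitted by limma over all 5080 transcripts, with p values adjusted by the Benjamini-Hochberg method over all of them. The word called, and upregulated or downregulated, is used of a gene with an adjusted p under 0.05 whose group means differed by more than 1 on that scale. All 88 members passed the filter on low values (mean of at least 1 FPKM). One library stood apart from its group: G14_37 replicate 1 correlated with replicates 2 and 3 at Pearson's r of 0.880 and 0.863 across all transcripts, and at 0.876 and 0.863 across the 88 members. Replicates 2 and 3 of that group had an r of 0.959 and the other groups 0.977 or higher over all transcripts. For the 7 calls of members that were lost without it, the value without it is given too.

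Transcription factor genes were expressed at moderate levels. The median of their mean FPKM was 64.4, against 72.2 over all transcripts, and 63 members lay between 10 and 100 FPKM. Only 1 member lay under 10 FPKM and 2 lay over 1000. Their genes were longer, with a median of 1564 bases against 1191. At the top was PAS_chr2-1_0490, described as a regulator of nitrogen catabolite repression, with 4059 FPKM over the 12 libraries, a level higher than that of 99.7% of all transcripts. Its domain label, GST_C, is not among the 15 labels of DNA-binding folds. Next came PAS_chr1-4_0339, a transcriptional activator with a bZIP label (1590.3 FPKM), then the TATA-binding protein PAS_chr1-4_0183 (580.2), the CCHC zinc finger protein PAS_chr2-2_0301 (538) and the activator of proteasome genes PAS_chr3_0689 (365). The second gene, PAS_chr1-4_0339, stayed at a like level in all groups, between 1388 FPKM in G14_30 and 1852 FPKM in Parent_37. The 3 lowest members were the zinc finger genes PAS_chr4_0104 (8.10 FPKM) and PAS_chr3_0759 (10.3 FPKM) and the zinc cluster activator PAS_chr4_0540 (13.97 FPKM).

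As a class the members moved about as much as other genes. The range of the 4 group means had a median of 0.79 on the log2 scale, against 0.82 over all transcripts, and exceeded 1 in 39.8% of members and 38.7% of all transcripts. It exceeded 1 in 20.3% of 69 genes of the general transcription machinery and in 23.2% of 82 chromatin genes. The spread between replicates was alike too, with a median SD within groups of 0.19 on the log2 scale for members and 0.18 for all transcripts. Of the 88 members, 37 had their highest group mean in Parent_37, 28 in G14_37, 14 in Parent_30 and 9 in G14_30. The shares were 42% of members and 34% of all transcripts for Parent_37. In 32 members, 36.4%, at least 1 of the 6 contrasts was called, against 35.6% of all transcripts, and 56 had none. Among those 56 the largest absolute log2 fold change over the 6 contrasts had a median of 0.62, and in 18 of them it stayed under 0.5.

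**Figure D1:**
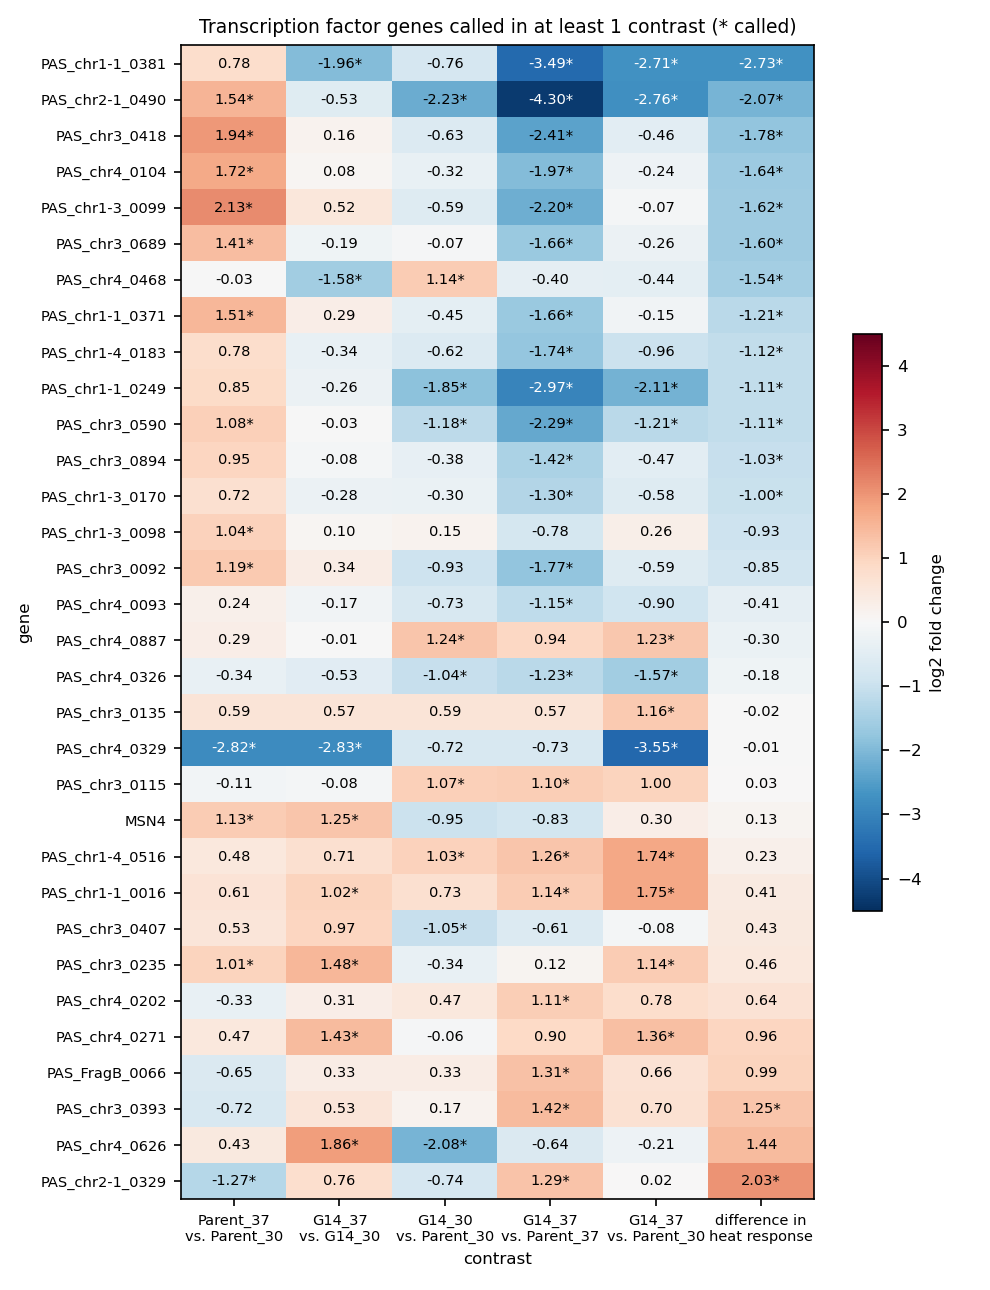
Heat map of the log2 fold changes of the 32 transcription factor genes called in at least 1 contrast. Rows are genes ordered by the difference in heat response, columns are the 6 contrasts, red is higher and blue lower in the first group named, and an asterisk marks a call. The upper 13 genes were called lower in the difference in heat response and the bottom gene, PAS_chr2-1_0329, had the highest value, 2.03.

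The first question was how heat changed these genes in the parent. In Parent_37 vs. Parent_30, 11 members were upregulated and 2 downregulated, which is 12.5% and 2.27% of the 88, against 14% and 7.56% of all transcripts. By the adjusted p alone, 34 members were higher and 21 lower at 37 °C, against 32.9% and 27% of all transcripts. The share upregulated was thus near that of all transcripts. In such bulk libraries, more cells that express a gene and more RNA per cell cannot be told apart. The median log2 fold change of the members was 0.22, and that of all transcripts 0.04. The libraries of the 2 groups did not overlap in 73 members, against 76.4% of all transcripts.

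The upregulated member with the largest change was PAS_chr1-3_0099, an activator whose description does not say which genes it serves. PAS_chr1-3_0099 was measured at 90.8, 89.0 and 82.6 FPKM in Parent_30, at 359.6, 459 and 349 in Parent_37, at 53.6, 62.7 and 57.4 in G14_30 and at 88.3, 74.4 and 86.9 in G14_37. All 3 Parent_37 libraries lay far above the other 9, which did not reach 100 FPKM. Its log2 fold change was 2.13 ± 0.12 (SE, adjusted p = 3.64e-07), a ratio of group means of 4.45.

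PAS_chr3_0418 is described as a zinc finger inhibitor of HO transcription, with a GATA label in the table. HO is the endonuclease gene of mating type switching in Saccharomyces cerevisiae. It was measured at 175, 170.4 and 151 FPKM in Parent_30, at 554, 748 and 622 in Parent_37, at 109, 115.3 and 96.3 in G14_30 and at 109, 127 and 122 in G14_37. Again the 3 Parent_37 libraries stood above all others, with the G14 libraries lowest at both temperatures. The log2 fold change in the parent was 1.94 ± 0.13 (SE, adjusted p = 8.79e-07).

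PAS_chr4_0104, a zinc finger gene with a CCCH label and the lowest mean of all members, followed the same shape at low level. It was found at 4.15, 5.20 and 5.93 FPKM in Parent_30, at 18.8, 21.4 and 16.9 in Parent_37, at 3.77, 3.84 and 3.88 in G14_30 and at 7.43, 3.19 and 2.77 in G14_37. Apart from the 3 Parent_37 libraries, every library lay under 8 FPKM. In the parent the log2 fold change was 1.72 ± 0.27 (SE, adjusted p = 0.000254), and since the pseudocount of 1 weighs on such low values it understates the ratio of group means, 3.74.

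PAS_chr2-1_0490, the nitrogen catabolite repression regulator at the top of the level order, stood at 3879, 3941 and 3577 FPKM in Parent_30, at 10978, 11259.5 and 10920.5 in Parent_37, at 741, 923 and 775 in G14_30 and at 436, 551 and 726 in G14_37. The 4 groups did not overlap, with Parent_37 highest and G14_37 lowest. Heat raised it in the parent by 1.54 ± 0.18 (SE, adjusted p = 3.73e-05) on the log2 scale. The bHLH gene PAS_chr1-1_0371, described as a factor of communication between organelles, was at 69.2, 82.0 and 85.8 FPKM in Parent_30, at 186, 239 and 257 in Parent_37, at 52.6, 53.9 and 66.6 in G14_30 and at 94.1, 54.3 and 68.8 in G14_37. Its Parent_37 libraries lay above all others and its log2 fold change in the parent was 1.51 ± 0.20 (SE, adjusted p = 7.11e-05).

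PAS_chr3_0689, whose product is described to stimulate expression of proteasome genes, completes the 6 largest increases. It stood at 278, 277 and 249.7 FPKM in Parent_30, at 729, 677 and 729 in Parent_37, at 264, 279.6 and 226 in G14_30 and at 199.5, 239 and 235 in G14_37. Parent_37 was 2.65 times Parent_30 in its group means, G14_30 overlapped Parent_30 and G14_37 lay just below it without overlap. The log2 fold change in the parent was 1.41 ± 0.11 (SE, adjusted p = 3.06e-06). The other 5 upregulated members, with log2 fold changes from 1.01 to 1.19, were the stress activator MSN4, the homeodomain repressor PAS_chr3_0590, the TEA-labelled gene PAS_chr3_0092, the SBF component PAS_chr1-3_0098 and the zinc finger gene PAS_chr3_0235. The call of PAS_chr3_0235 (1.01 ± 0.33 SE, adjusted p = 0.0212) was lost when any 1 of 4 parent libraries was left out, with an adjusted p of up to 0.0754.

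Of the 2 downregulated members, PAS_chr4_0329, of the CCCH zinc finger family, changed most. CCCH fingers are often found in proteins that bind RNA. It was measured at 214, 250.5 and 314 FPKM in Parent_30, at 33.3, 31.8 and 42.1 in Parent_37, at 241, 188 and 82.1 in G14_30 and at 5.74, 37.8 and 39.8 in G14_37. Both strains fell from above 80 FPKM at 30 °C to under 43 FPKM at 37 °C, and G14_37 replicate 1 was lowest of all. The log2 fold change was -2.82 ± 0.61 (SE, adjusted p = 0.00222) in the parent and -2.83 ± 0.61 (SE, adjusted p = 0.0105) in G14. Without G14_37 replicate 1 the change in G14 was -1.97 and was still called.

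PAS_chr2-1_0329 is described as an activator of proline utilization genes, with a fungal transcription factor domain label. It was measured at 54.7, 46.6 and 41.0 FPKM in Parent_30, at 17.9, 19.7 and 19.3 in Parent_37, at 32.3, 30.8 and 21.6 in G14_30 and at 51.6, 66.7 and 31.8 in G14_37. Parent_37 was lowest with no overlap to any other group, while Parent_30 and G14_37 overlapped. In the parent its log2 fold change was -1.27 ± 0.24 (SE, adjusted p = 0.000848). In G14 the change was in the other direction, 0.76 ± 0.24 (SE, adjusted p = 0.0382), under the fold threshold and with 1 G14_37 library at the level of G14_30.

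**Figure D2:**
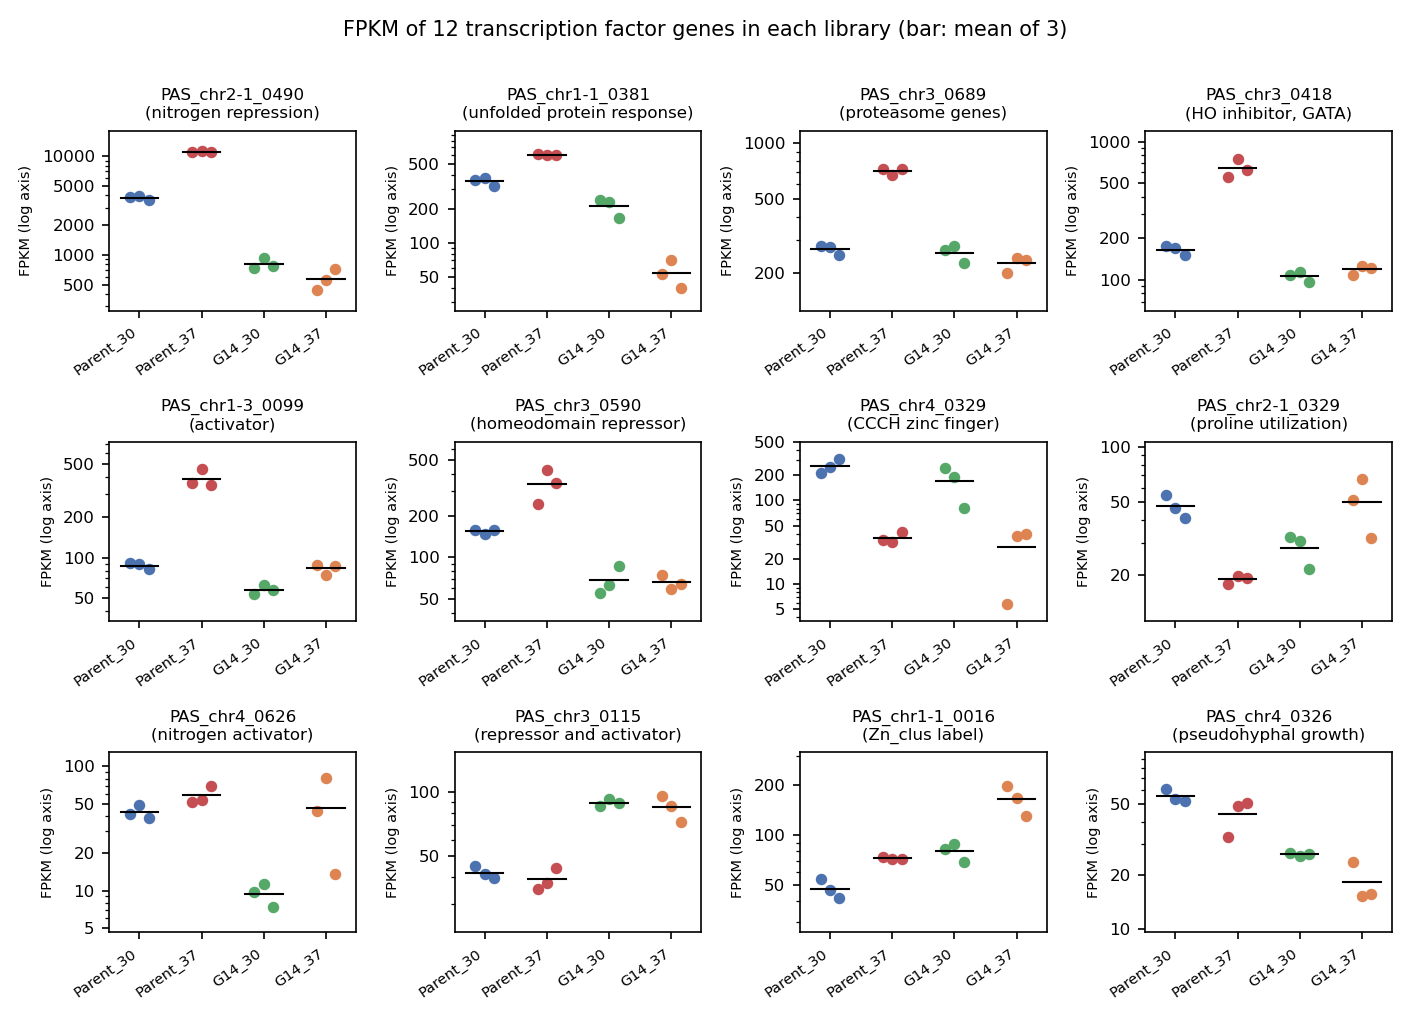
FPKM of 12 transcription factor genes in every library, on a log axis, with groups along the horizontal axis. Each point is 1 library in the order of replicates 1 to 3 and each bar the mean of 3. In the upper row and in PAS_chr1-3_0099 and PAS_chr3_0590 the 3 Parent_37 libraries lie above all others, and in PAS_chr3_0115 both G14 groups lie above both parent groups.

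The second question was whether G14 answered heat in the same way. In G14_37 vs. G14_30, 5 members were upregulated and 3 downregulated, against 2.22% and 1.56% of all transcripts, and 16 were higher and 5 lower by the adjusted p alone, against 12.1% and 13.2%. The 5 upregulated members were 1.86 for the nitrogen activator PAS_chr4_0626, 1.48 for the zinc finger gene PAS_chr3_0235, 1.43 for the GATA gene PAS_chr4_0271, 1.25 for MSN4 and 1.02 for the gene PAS_chr1-1_0016 with a zinc cluster label, all as log2 fold changes. Without G14_37 replicate 1, PAS_chr3_0235 had 1.12 and PAS_chr1-1_0016 had 0.88, below the fold threshold. These counts depended on single libraries. They became 3 up and 3 down without G14_37 replicate 1, 2 up without G14_30 replicate 3 and 8 up without G14_37 replicate 3, and a fit of the 2 G14 groups alone left 0 up and 1 down, PAS_chr1-1_0381.

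PAS_chr4_0626, an activator of genes under nitrogen catabolite repression with a GATA label, rested on few libraries. It stood at 41.4, 49.1 and 38.5 FPKM in Parent_30, at 52.0, 53.5 and 69.8 in Parent_37, at 9.71, 11.4 and 7.43 in G14_30 and at 43.5, 81.0 and 13.7 in G14_37. The G14_30 libraries were the lowest of all, and the 3 G14_37 libraries ranged from close to G14_30 up to the highest value of the series. The log2 fold change in G14 was 1.86 ± 0.47 (SE, adjusted p = 0.0177), and it lost its call without G14_30 replicate 3 (adjusted p = 0.0646). PAS_chr4_0271, described by GATA finger motifs, was at 39.3, 40.3 and 35.9 FPKM in Parent_30, at 51.0, 53.6 and 56.1 in Parent_37, at 41.6, 40.2 and 29.7 in G14_30 and at 159.7, 84.6 and 75.05 in G14_37. Its G14_37 libraries lay above all 9 others and replicate 1 was far above replicates 2 and 3. The change in G14 was 1.43 ± 0.24 (SE, adjusted p = 0.00432), and 1.09 without G14_37 replicate 1, which was still called.

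The third downregulated member in G14, beside PAS_chr4_0329 and PAS_chr1-1_0381, was PAS_chr4_0468, described to be required for gene regulation in response to pheromones. It was at 23.0, 18.7 and 19.0 FPKM in Parent_30, at 21.2, 18.3 and 19.6 in Parent_37, at 61.9, 50.01 and 30.6 in G14_30 and at 9.54, 24.0 and 13.5 in G14_37. The G14_30 libraries were highest and the 2 parent groups were alike. It was higher in G14 than in the parent at 30 °C (1.14 ± 0.30 SE, adjusted p = 0.016) and fell with heat in G14 (-1.58 ± 0.30 SE, adjusted p = 0.00736), while the parent hardly moved (-0.03, adjusted p = 0.931). The call at 30 °C was lost without Parent_30 replicate 2, G14_30 replicate 1 or G14_30 replicate 2.

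The test of the difference between the 2 heat responses, G14 minus parent, gave 2 members upregulated and 13 downregulated, 2.27% and 14.8% of the 88, against 4.31% and 11.1% of all transcripts. A negative value means that heat raised the gene less, or lowered it more, in G14 than in the parent. By the adjusted p alone, 17 were higher and 19 lower, against 14.6% and 20.7% of all transcripts. The split of the calls depended on the scaling between libraries: with every library scaled to the same sum of FPKM (TPM scaling) it was 6 up and 11 down. Without G14_37 replicate 1 it was 2 up and 12 down, without G14_37 replicate 2 it was 4 up and without G14_37 replicate 3 it was 6 up. Of the 13, 7 were also upregulated in the parent, a contrast that shares its libraries with this one.

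PAS_chr1-1_0381, a bZIP factor described to regulate the unfolded protein response, had the lowest value. In yeasts this response raises chaperones and folding enzymes of the endoplasmic reticulum when unfolded proteins gather there. The gene was at 362, 375 and 318 FPKM in Parent_30, at 610.2, 600.1 and 598 in Parent_37, at 237, 228 and 164 in G14_30 and at 52.5, 69.7 and 40.005 in G14_37. No 2 groups overlapped, and the order was Parent_37, Parent_30, G14_30 and G14_37. Its log2 fold change with heat was 0.78 in the parent (adjusted p = 0.00482) and -1.96 in G14 (adjusted p = 0.000506). The difference of the 2 was -2.73 ± 0.27 (SE, adjusted p = 5.03e-05). KAR2, the endoplasmic reticulum chaperone of the study's heat shock protein list, had a log2 fold change of 1.06 in the parent and -1.27 in G14, with a difference of -2.33 ± 0.39 (SE, adjusted p = 0.00118).

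For the other members named above the difference was -2.07 ± 0.26 (SE, adjusted p = 0.000216) in PAS_chr2-1_0490, -1.78 ± 0.18 (SE, adjusted p = 5.68e-05) in PAS_chr3_0418 and -1.64 ± 0.38 (SE, adjusted p = 0.00712) in PAS_chr4_0104. It was -1.62 ± 0.17 (SE, adjusted p = 7.10e-05) in PAS_chr1-3_0099 and -1.60 ± 0.16 (SE, adjusted p = 5.52e-05) in PAS_chr3_0689. In these 5 genes heat raised the level in the parent, and the log2 fold changes in G14 ran from -0.53 to 0.52, so that the heat responses themselves differed by the test. The bHLH gene PAS_chr1-1_0371 (-1.21) and the pheromone regulator PAS_chr4_0468 (-1.54) were called as well. Closer to the threshold were the homeodomain gene PAS_chr3_0590 (-1.11), the TATA-binding protein PAS_chr1-4_0183 (-1.12), the cleavage and polyadenylation factor PAS_chr1-1_0249 (-1.11), and the zinc finger genes PAS_chr3_0894 (-1.03) and PAS_chr1-3_0170 (-1.001). Of these 5, PAS_chr1-4_0183 alone was called without every single library in turn, and PAS_chr1-3_0170 had -0.89 without G14_37 replicate 1.

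Upwards, the proline activator PAS_chr2-1_0329 had a difference of 2.03 ± 0.34 (SE, adjusted p = 0.00115). The other was PAS_chr3_0393, described only as a transcription factor, with 1.25 ± 0.35 (SE, adjusted p = 0.0176). It stood at 101, 97.3 and 95.9 FPKM in Parent_30, at 62.4, 64.3 and 51.4 in Parent_37, at 118, 116 and 98.0 in G14_30 and at 264, 132 and 116 in G14_37. Parent_37 was lowest and G14_37 highest, where replicate 1 lay far above replicates 2 and 3. Without that library the difference was 0.89, under the fold threshold.

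Across the 88 members, the heat response in the parent and that in G14, which share no library, had a Pearson's r of 0.31 and a Spearman's rho of 0.18, against 0.49 and 0.46 over all transcripts. Genes are not independent replicates, so these are descriptions. The sign was the same in 57 members, 64.8%, and in 67% of all transcripts. In 58 of 88 members the response was larger in the parent than in G14, with a median absolute log2 fold change of 0.49 against 0.26. The same held for 69.7% of all transcripts, with medians of 0.51 and 0.28. MSN4 and PAS_chr3_0235 were upregulated in both strains, and PAS_chr4_0329 was downregulated in both.

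**Figure D3:**
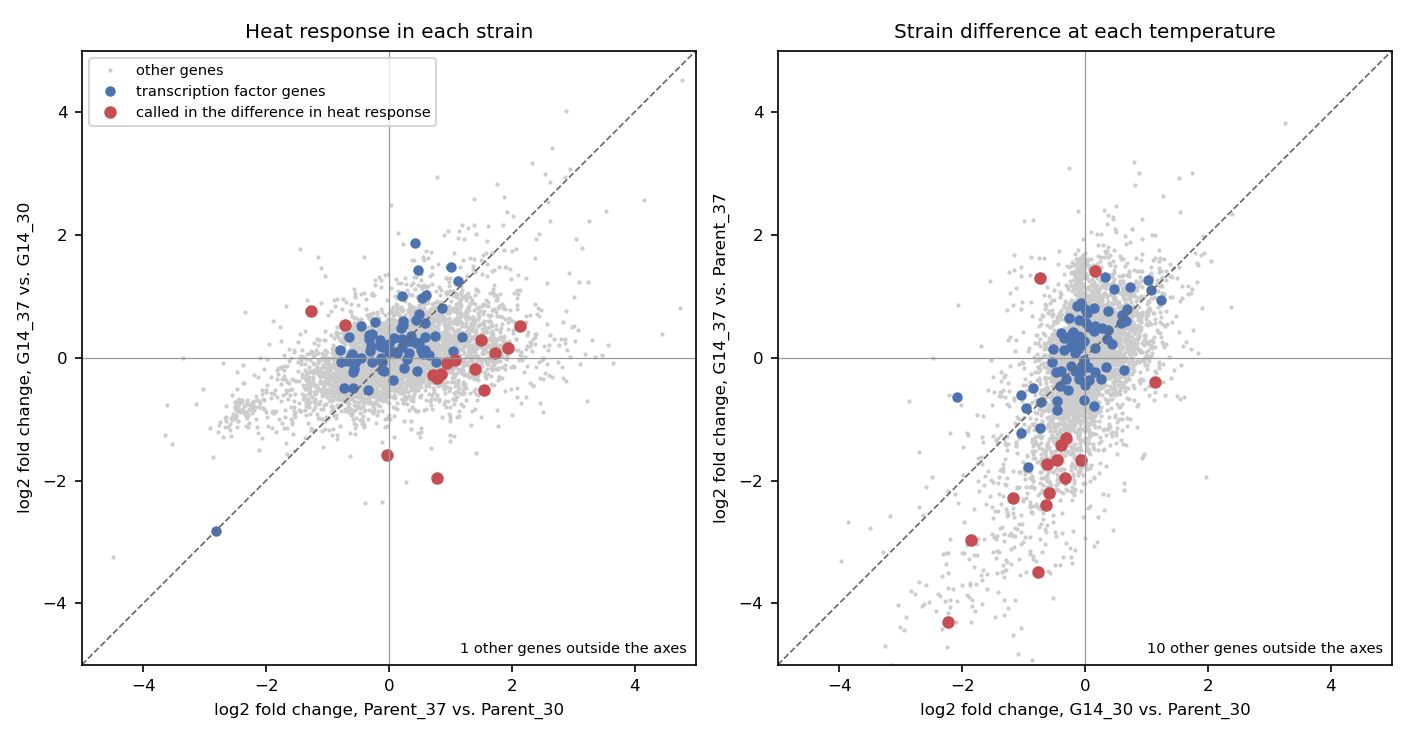
Log2 fold changes of the 88 transcription factor genes (blue, and red where called in the difference in heat response) over all other transcripts (grey), with the diagonal dashed. On the left the heat response of G14 is plotted over that of the parent, and on the right the strain difference at 37 °C over that at 30 °C. Most red points on the left lie to the right of 0 and near 0 in height, and PAS_chr4_0329 lies on the diagonal at -2.82.

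The third question was how G14 differed from the parent at a given temperature. At 30 °C, in G14_30 vs. Parent_30, 4 members were upregulated and 6 downregulated, against 2.87% and 4.49% of all transcripts. By the adjusted p alone 12 were higher and 20 lower, against 14.9% and 13.7%. With TPM scaling the calls were 4 up and 3 down. At 37 °C, in G14_37 vs. Parent_37, 7 were upregulated and 15 downregulated, against 7.42% and 14.3%, and 28 were higher and 27 lower by the adjusted p alone, against 29.4% and 28.1%. Here TPM scaling gave 15 up and 13 down, and leaving out G14_37 replicate 1 gave 6 up and 18 down. TPM scaling moved the median log2 fold change of all transcripts from between -0.03 and 0.05 to between 0.10 and 0.39 over the 6 contrasts. The median over the members lay within 0.18 of that over all transcripts in all 6 contrasts under either scaling.

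The largest difference among members at either temperature was that of PAS_chr2-1_0490, with -2.23 ± 0.18 (SE, adjusted p = 9.23e-06) at 30 °C and -4.30 ± 0.18 (SE, adjusted p = 1.12e-08) at 37 °C. As ratios of group means, the parent was at 4.67 times the level of G14 at 30 °C and at 19.4 times at 37 °C. The 10 genes on either side of it had a median log2 fold change of -0.12 at 30 °C and -0.14 at 37 °C. Among the members only 1 other gene carried its domain label, GST_C. That gene, PAS_chr2-1_0033, is also described as a regulator of nitrogen catabolite repression, one that inhibits GLN3. In the parent its mean was 171 ± 35.3 FPKM (SD, n = 3) at 30 °C and 113 ± 9.23 FPKM at 37 °C, and in G14 it was 193 ± 36.2 and 164 ± 38.1 FPKM. None of its 6 contrasts was called.

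PAS_chr1-1_0249, an RNA-binding component of the cleavage and polyadenylation factor with zinc fingers, was lower in G14 too. It was at 144, 149 and 133 FPKM in Parent_30, at 233, 254 and 285 in Parent_37, at 33.8, 40.2 and 42.0 in G14_30 and at 39.98, 20.4 and 40.01 in G14_37. Every G14 library lay under 43 FPKM and every parent library over 130 FPKM. Its strain difference was -1.85 ± 0.22 (SE, adjusted p = 0.000101) at 30 °C and -2.97 ± 0.22 (SE, adjusted p = 8.29e-07) at 37 °C. This factor acts on the 3' ends of transcripts and is not a sequence-specific transcription factor.

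PAS_chr3_0590 is described as a homeodomain repressor of PTR2, which in Saccharomyces cerevisiae encodes a peptide transporter. It was measured at 157, 146 and 158 FPKM in Parent_30, at 240.3, 425 and 341 in Parent_37, at 55.4, 63.3 and 87.2 in G14_30 and at 74.4, 59.7 and 64.7 in G14_37. The 2 G14 groups overlapped each other and lay below the parent at both temperatures. At 30 °C the log2 fold change was -1.18 ± 0.21 (SE, adjusted p = 0.0016), or -0.99 with TPM scaling, and at 37 °C it was -2.29 ± 0.21 (SE, adjusted p = 4.58e-06). The fourth member called lower in G14 at both temperatures was PAS_chr4_0326, an activator described to enhance pseudohyphal growth, the growth of yeasts as chains of elongated cells. It was at 60.9, 53.2 and 52.1 FPKM in Parent_30, at 32.9, 48.6 and 50.9 in Parent_37, at 26.8, 25.8 and 26.4 in G14_30 and at 23.9, 15.4 and 15.7 in G14_37, with no overlap between the strains. This gave a log2 fold change of -1.04 ± 0.19 (SE, adjusted p = 0.0017) at 30 °C and -1.23 ± 0.19 (SE, adjusted p = 0.000217) at 37 °C, and with TPM scaling it was -0.85 and -0.95, below the fold threshold.

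Upregulated in G14 at both temperatures were 2 members. The first, PAS_chr3_0115, a repressor and activator with the label of the heat shock factor DNA-binding domain, was at 45.0, 41.4 and 39.4 FPKM in Parent_30, at 35.2, 37.4 and 44.2 in Parent_37, at 86.3, 92.7 and 88.7 in G14_30 and at 96.2, 86.4 and 72.5 in G14_37. Both G14 groups lay above both parent groups and temperature made no difference beyond the spread. The strain difference was 1.07 ± 0.12 (SE, adjusted p = 6.93e-05) at 30 °C and 1.104 ± 0.12 (SE, adjusted p = 1.74e-05) at 37 °C. Its neighbours moved in the same direction: the 10 genes on either side, on chromosome 3, had a median of 0.57 at 30 °C and 0.67 at 37 °C. The bZIP gene PAS_chr3_0135, on the same chromosome, had 0.59 and 0.57, with neighbour medians of 0.89 and 0.61. The part of the neighbourhood in the levels of these genes was not tested. The other gene, PAS_chr1-4_0516, a putative factor, was at 38.6, 43.4 and 37.7 FPKM in Parent_30, at 55.4, 57.4 and 55.5 in Parent_37, at 84.0, 83.5 and 80.0 in G14_30 and at 221, 117 and 96.3 in G14_37, with no overlap between the strains at either temperature. Its log2 fold changes were 1.03 ± 0.23 (SE, adjusted p = 0.00691) and 1.26 ± 0.23 (SE, adjusted p = 0.000824), and without G14_37 replicate 1 the latter was 0.91, while its neighbours had medians of -0.10 and -0.24.

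At 30 °C, PAS_chr4_0887, a short gene described as a transcription factor, was upregulated in G14 (1.24 ± 0.12 SE, adjusted p = 3.40e-05), and at 37 °C it reached 0.94 (adjusted p = 8.03e-05). It was at 90.6, 105 and 118 FPKM in Parent_30, at 124, 133 and 124 in Parent_37, at 225, 245 and 274 in G14_30 and at 216, 259 and 261 in G14_37, so all 6 G14 libraries lay above all 6 parent libraries. The zinc finger gene PAS_chr3_0407 was called lower at 30 °C (-1.05 ± 0.35 SE, adjusted p = 0.0461), but the call was lost in 9 of the 12 fits that left out 1 library. At 37 °C the further upregulated members were PAS_chr3_0393 (1.42), PAS_FragB_0066 (1.31), PAS_chr2-1_0329 (1.29), PAS_chr1-1_0016 (1.14) and the zinc finger gene PAS_chr4_0202 (1.11, or 0.97 without G14_37 replicate 1). PAS_FragB_0066, a putative factor with a bZIP label, was at 229, 217 and 230.2 FPKM in Parent_30, at 132, 151 and 147 in Parent_37, at 282, 279.7 and 288 in G14_30 and at 316, 376 and 383 in G14_37. Parent_37 was its lowest group and G14_37 its highest, with no overlap between any 2 groups.

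At 37 °C, 12 of the 15 members lower in G14 were among the 13 of the difference in heat response, which shares their libraries. The 3 others were PAS_chr3_0092 (-1.77 ± 0.17 SE, adjusted p = 7.17e-06), with a TEA label and a description that names full expression of the retrotransposon Ty1, PAS_chr4_0326 and PAS_chr4_0093. The libraries of PAS_chr3_0092 stood at 149.5, 139 and 137 FPKM in Parent_30, at 269.7, 362 and 347 in Parent_37, at 70.2, 76.0 and 75.8 in G14_30 and at 70.2, 113 and 104 in G14_37. The Parent_37 libraries were highest and the 2 G14 groups lowest, without overlap with the parent. The strain difference had a Pearson's r of 0.68 between the 2 temperatures across the 88 members and 0.62 across all transcripts, with the same sign in 59 members, 67%. In 65 of 88 members it was larger at 37 °C than at 30 °C, which is 73.9%, against 68.2% of all transcripts.

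The contrast that differs in both strain and temperature, G14_37 vs. Parent_30, called 6 members up and 6 down, against 5.91% and 7.01% of all transcripts, and with TPM scaling 15 up and 5 down. Without G14_37 replicate 1 it called 5 up and 7 down, and PAS_chr3_0235 passed from 1.14 to 0.78 and lost its call. By the adjusted p alone 22 were higher and 17 lower, against 24.3% and 26%. PAS_chr1-1_0016, with a zinc cluster label, was highest, at 1.75 ± 0.15 (SE, adjusted p = 9.34e-06). Its libraries stood at 54.3, 46.9 and 41.8 FPKM in Parent_30, at 73.9, 71.99 and 72.2 in Parent_37, at 81.9, 88.2 and 69.2 in G14_30 and at 196, 167 and 129 in G14_37. Each step of strain and of temperature went up in its group means, and G14_37 lay above all other groups. PAS_chr3_0135, a bZIP factor of the ATF/CREB family, was called in this contrast alone, at 1.16 ± 0.13 (SE, adjusted p = 5.41e-05). It was measured at 176, 169 and 159.6 FPKM in Parent_30, at 251, 233 and 279.8 in Parent_37, at 233, 264 and 266 in G14_30 and at 459, 352 and 333 in G14_37. The 2 middle groups, Parent_37 and G14_30, overlapped, and neither factor alone changed it by more than 2-fold.

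Among the stress regulators, 3 were named in the supplementary gene list of the study, which covers key genes with a possible part in thermotolerance. HSF1, the heat shock factor, is the conserved activator of chaperone genes in yeasts. It was at 63.8, 74.97 and 71.8 FPKM in Parent_30, at 94.8, 77.9 and 91.7 in Parent_37, at 73.8, 67.1 and 66.4 in G14_30 and at 85.6, 78.3 and 85.7 in G14_37. The groups at 37 °C lay above those at 30 °C within each strain, by less than the 2-fold threshold. The log2 fold change was 0.32 ± 0.10 (SE, adjusted p = 0.0172) in the parent and 0.26 ± 0.10 (SE, adjusted p = 0.074) in G14. Between the strains it was -0.02 at 30 °C and -0.08 at 37 °C, and both turned positive with TPM scaling (0.17 and 0.21). Each of these contrasts had a standard error of 0.10, against a call threshold of 1.

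MSN4, which in Saccharomyces cerevisiae activates a general stress program with its relative Msn2, was found at 173, 199 and 219 FPKM in Parent_30, at 402, 496 and 399 in Parent_37, at 109, 112 and 84.3 in G14_30 and at 441, 206 and 156 in G14_37. Its G14_30 libraries were lowest and its Parent_37 libraries high. Heat raised it in both strains, by 1.13 ± 0.30 (SE, adjusted p = 0.00797) in the parent and by 1.25 ± 0.30 (SE, adjusted p = 0.0153) in G14, and the difference between the 2 responses was 0.13 ± 0.43 (SE, adjusted p = 0.846). G14_37 replicate 1 lay at the level of Parent_37, while replicates 2 and 3 lay near Parent_30. Without replicate 1 the change in G14 was 0.82 (adjusted p = 0.0106), under the fold threshold, and the strain difference at 37 °C passed from -0.83 to -1.26. Without G14_30 replicate 3 the change in G14 was 1.13 (adjusted p = 0.0609). The bZIP gene YAP1, required for oxidative stress tolerance, was at 172, 170.1 and 180.2 FPKM in Parent_30, at 275, 268 and 242 in Parent_37, at 161, 169 and 159 in G14_30 and at 244, 172 and 208 in G14_37. It was higher in Parent_37 than in Parent_30 by 0.58 ± 0.12 (SE, adjusted p = 0.00167), with no overlap, and no contrast of it was called.

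The other 4 members with a stress description were PAS_chr1-1_0381, already given, and PAS_chr2-2_0202, PAS_chr4_0093 and PAS_chr4_0438. PAS_chr2-2_0202, an activator of stress genes with a C2H2 label, was higher at 37 °C in the parent (0.74 ± 0.10 SE, adjusted p = 8.50e-05) and in G14 (0.35 ± 0.10 SE, adjusted p = 0.026), both under 2-fold. PAS_chr4_0093, a putative factor of the osmotic stress response, was downregulated in G14 at 37 °C (-1.15 ± 0.15 SE, adjusted p = 7.80e-05), and the call was lost with TPM scaling (-0.86). The gene PAS_chr4_0438, described as a heat shock protein with a zinc finger motif, had 0.52 ± 0.14 (SE, adjusted p = 0.00866) in the parent and -0.85 ± 0.14 (SE, adjusted p = 0.000447) between the strains at 37 °C. All 7 stress members had a positive log2 fold change in the parent, against 52.5% of all transcripts. By the adjusted p 6 were higher, against 32.9% of all transcripts. By the call it was 1, MSN4, a share of 14.3% that is near the 14% of all transcripts. At 37 °C all 7 had a negative value in G14 against the parent, where 47.2% of all transcripts did. Of the 7, 2 were called, PAS_chr1-1_0381 and PAS_chr4_0093, against 14.3% of all transcripts. With TPM scaling 5 of the 7 were negative, against 32.6% of all transcripts, HSF1 was positive and PAS_chr1-1_0381 alone was called.

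**Figure D4:**
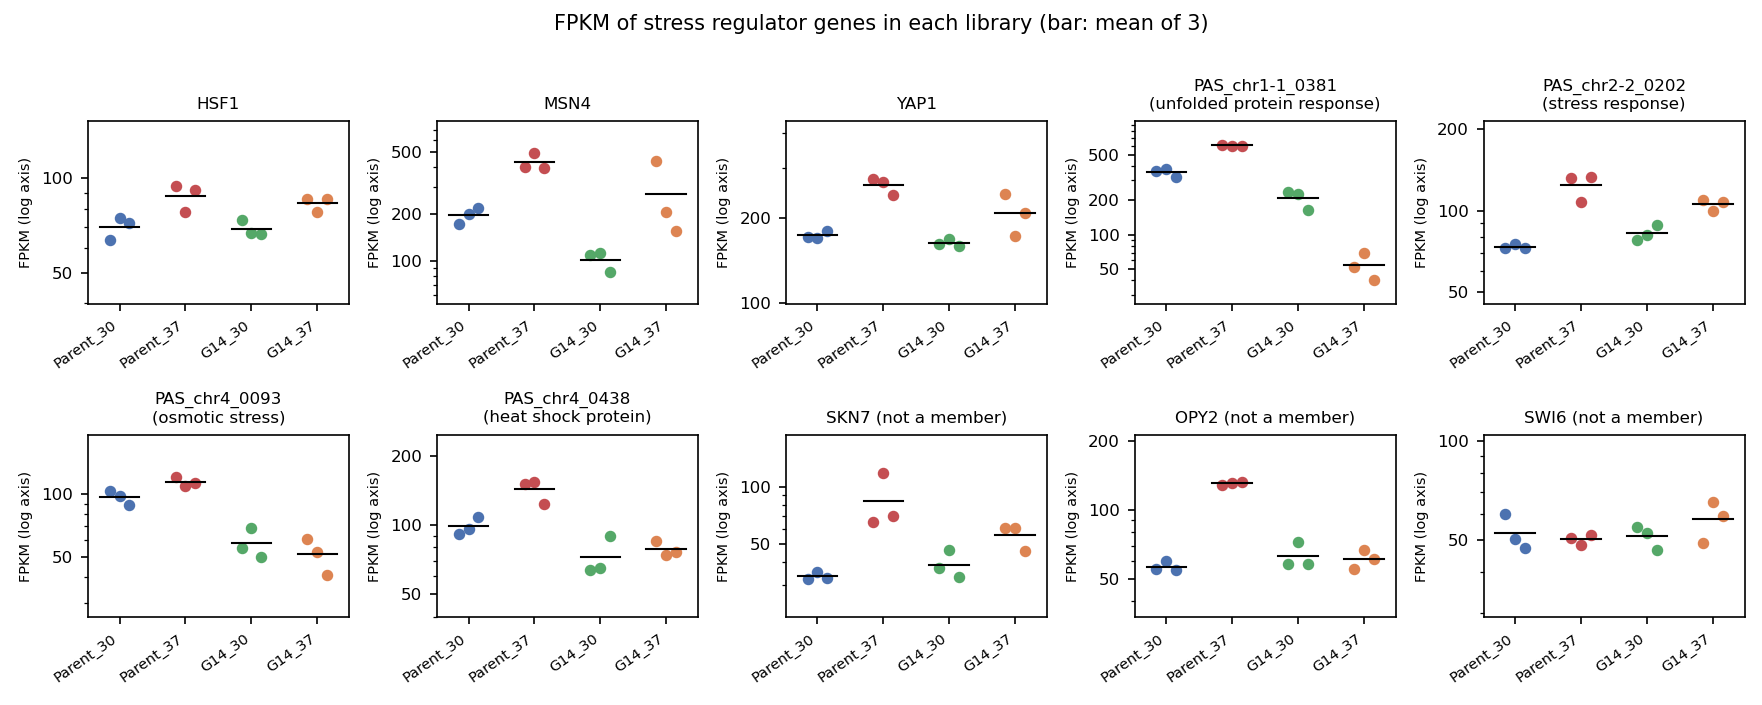
FPKM of the 7 stress members and of 3 genes of the supplementary list that are not members, in every library on a log axis, with 3 points per group and a bar at the mean. HSF1 spans less than 2-fold over all 12 libraries, PAS_chr1-1_0381 falls in the order Parent_37, Parent_30, G14_30 and G14_37, and in OPY2 the 3 Parent_37 libraries lie above all others.

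The supplementary list holds 3 further genes under transcription factors, SKN7, OPY2 and SWI6, whose descriptions the pattern did not match. SKN7, an oxidative stress regulator in Saccharomyces cerevisiae, was at 32.6, 35.3 and 33.0 FPKM in Parent_30, at 65.2, 118 and 70.3 in Parent_37, at 36.9, 46.1 and 33.1 in G14_30 and at 60.6, 60.1 and 45.6 in G14_37. Heat raised it by 1.25 ± 0.21 (SE, adjusted p = 0.000415) in the parent. OPY2, a membrane protein of signalling in Saccharomyces cerevisiae, rose by 1.19 ± 0.11 (SE, adjusted p = 4.96e-06) in the parent, with a difference in heat response of -1.24 ± 0.15 (SE, adjusted p = 0.000173). SWI6, a partner of cell cycle factors, was not called in any contrast, with absolute log2 fold changes under 0.25. Its described partner among the members, PAS_chr1-3_0098, the DNA-binding component of SBF, rose in the parent by 1.04 ± 0.12 (SE, adjusted p = 2.82e-05) and had 0.10 in G14.

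Beside these regulators stand the heat shock protein and antioxidant genes of the supplementary list. Which regulator acts on which of these genes was not tested. Of 11 heat shock protein genes in the supplementary list, 10 were upregulated in Parent_37 vs. Parent_30, against 14% of all transcripts. The median log2 fold change of the 11 was 1.15. In G14_37 vs. Parent_37, 10 were downregulated, against 14.3% of all transcripts, with a median of -3.89 over the 11. The exceptions were SSA1 (0.28) in the first contrast and HSP82 (0.25) in the second. Over the same contrasts HSF1 had 0.32 and -0.08. In the difference in heat response 9 of the 11 were downregulated, against 11.1% of all transcripts, with a median of -2.03. Of the 7 antioxidant genes, 4 were upregulated by heat in the parent, against 14% of all transcripts. PRX1 (-0.64) and DOT5 (-0.80) were lower there by the adjusted p alone. At 37 °C, TSA1, SOD1 and AHP1 were downregulated in G14, against 14.3% of all transcripts. SOD2 (0.61) and PRX1 (0.59) were higher by the adjusted p alone. CAT had 1.04 ± 0.59 (SE, adjusted p = 0.156) in the same contrast and was not called. The median of the 7 was 0.19, where YAP1 had -0.34. The study describes the lists as key genes that may bear on thermotolerance, and they are the genes of its expression figure on these samples. CAT also stands in its peroxisomal list, which the study describes as upregulated genes. The lists are therefore not independent of these data, and their shares beside those of all transcripts are descriptions only. The RNA level of HSF1 hardly differed between strains in the contrast in which the heat shock protein genes differed most.

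**Figure D5:**
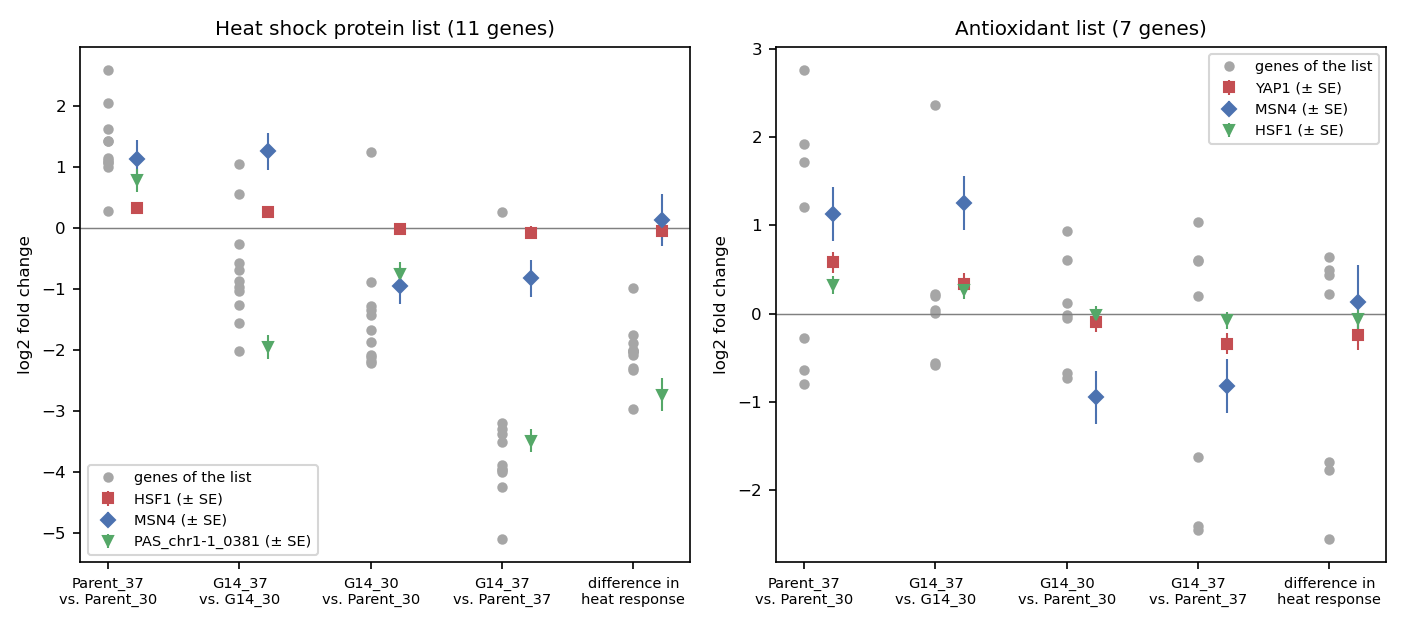
Log2 fold changes of the genes of the heat shock protein list (left, 11 genes) and the antioxidant list (right, 7 genes) in 5 contrasts, as grey points, beside stress regulators as coloured symbols with their standard errors. In G14_37 vs. Parent_37 the median of the heat shock protein genes was -3.89, HSF1 lay at -0.08 and PAS_chr1-1_0381 at -3.49.

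For the proteasome, 38 genes were collected by their description after the data had been seen, without PAS_chr3_0689. In Parent_37 vs. Parent_30, where PAS_chr3_0689 had 1.41, 3 of them were upregulated and none downregulated, against 14% and 7.56% of all transcripts. By the adjusted p alone 24 were lower, against 27% of all transcripts, and the median of the 38 was -0.48. In G14_37 vs. Parent_37, where PAS_chr3_0689 had -1.66, 4 were downregulated and none upregulated, against 14.3% and 7.42% of all transcripts. The median of the 38 was 0.17. The RNA of PAS_chr3_0689 and the median of these 38 genes thus had opposite signs in both contrasts. Whether PAS_chr3_0689 acts on them was not tested.

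The 6 members of the nitrogen group were the regulators PAS_chr2-1_0490 and PAS_chr2-1_0033, the GATA-labelled activators PAS_chr4_0626, PAS_chr1-3_0126 and PAS_chr1-4_0395, and the proline activator PAS_chr2-1_0329. In G14_37 vs. Parent_37 their log2 fold changes ran from -4.30 to 1.29, with 1 called in each direction. The 3 GATA-labelled activators differed among themselves: at 30 °C the strain difference was -2.08 ± 0.47 (SE, adjusted p = 0.00705) in PAS_chr4_0626, 0.15 ± 0.19 (SE, adjusted p = 0.616) in PAS_chr1-3_0126 and 0.63 ± 0.17 (SE, adjusted p = 0.0155) in PAS_chr1-4_0395. In the parent, heat gave PAS_chr1-3_0126 -0.60 and PAS_chr1-4_0395 0.77, both past the adjusted p and in opposite directions.

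Among the other roles, the activator of pseudohyphal growth PAS_chr4_0326 was called, as given above. The members with a carbon source, cell cycle, metal or ribosome description had no call in any contrast. The SBF component PAS_chr1-3_0098, called in the parent, had no cell cycle term in its description and was not in that list. Of the 3 carbon source regulators none was called. The glucose repression factor PAS_chr4_0334 had the largest value among all uncalled members, 1.01 ± 0.42 (SE, adjusted p = 0.1) in G14, and stood at 145, 34.7 and 35.5 FPKM in G14_37, so 1 library made the mean. PAS_chr2-2_0284, a regulator in the glucose repression of genes under Gal4p, was lower at 37 °C in the parent (-0.46 ± 0.09 SE, adjusted p = 0.00093) with a change of -0.0012 in G14. The zinc finger factor PAS_chr4_0487 was listed at 100.3, 27.1 and 27.9 FPKM in G14_37, again with replicate 1 apart. Of the cell cycle members, the G2/M forkhead PAS_chr4_0205, the forkhead PAS_chr1-4_0286 and the G1 to S regulator PAS_chr2-1_0508 were higher in G14_37 than in Parent_37 by 0.72, 0.69 and 0.37, past the adjusted p and under 2-fold. The metal regulators PAS_chr3_0923 (copper) and PAS_chr1-1_0056 (zinc) were not called, and PAS_chr1-1_0056 came closest, at 0.98 ± 0.20 (SE, adjusted p = 0.00243) in G14_37 vs. Parent_30. The regulator of ribosome biogenesis genes, PAS_chr4_0169, stayed between 105 and 125 FPKM in its group means.

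The 10 genes described as zinc clusters had absolute log2 fold changes under 1 in all 6 contrasts. None of the 10, of which PAS_chr3_0582 is described as a splicing protein, was called in any of the 6 contrasts by limma, against 35.6% of all transcripts called in at least 1. By the adjusted p alone 4 were higher and 4 lower in Parent_37 vs. Parent_30, together 80% of the family against 59.9% of all transcripts, and 9 of the 10 had no overlap between the 2 groups, against 76.4% of all transcripts. Their log2 fold changes ran from -0.79 to 0.86 there. PAS_chr4_0203, a proposed activator of the Gal4p family, was lower in the parent at 37 °C (-0.79 ± 0.12 SE, adjusted p = 0.00023), as was PAS_chr2-1_0511 (-0.56 ± 0.10 SE, adjusted p = 0.000584), and PAS_chr2-2_0410 was higher (0.45 ± 0.10 SE, adjusted p = 0.0024). PAS_chr2-1_0757 had a difference in heat response of 0.97 ± 0.25 (SE, adjusted p = 0.0118), just under the fold threshold. PAS_chr4_0540 was listed at 47.7, 6.14 and 7.30 FPKM in G14_37, where replicate 1 lay more than 6 times above the others. Genes with a zinc cluster label but no cluster in the description, such as PAS_chr1-1_0016, were not counted here. PAS_chr1-1_0016 was called, at 1.02 in G14_37 vs. G14_30, 1.14 in G14_37 vs. Parent_37 and 1.75 in G14_37 vs. Parent_30.

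Of the 22 other zinc finger genes, 3 were upregulated and 1 downregulated by heat in the parent, which is 13.6% and 4.55% against 14% and 7.56% of all transcripts. In G14_37 vs. Parent_37, 1 was upregulated and 5 downregulated, 4.55% and 22.7% against 7.42% and 14.3%. The 3 bZIP genes went separate ways: YAP1 was called in no contrast, PAS_chr3_0135 rose in G14_37 vs. Parent_30 and PAS_chr1-1_0381 fell. Homeodomain genes differed too, since PAS_chr3_0590 was called in 5 contrasts and PAS_chr2-1_0784 and PAS_chr2-2_0043 in none. Of the 2 bHLH genes, PAS_chr1-1_0371 was called in 3 contrasts and the myc-like PAS_chr3_0712 in none, with log2 fold changes from -0.23 to 0.44. The 3 members with the heat shock factor domain label were HSF1, PAS_chr3_0115 and PAS_chr2-1_0404. In G14_30 vs. Parent_30 they had -0.02, 1.07 and -0.16.

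The 2 other members among the 5 highest by level differed between groups too. The TATA-binding protein PAS_chr1-4_0183, a general factor of all 3 nuclear RNA polymerases in eukaryotes, was at 596, 638 and 558 FPKM in Parent_30, at 939, 1160.4 and 985 in Parent_37, at 394, 400.2 and 369 in G14_30 and at 282, 285 and 356 in G14_37. Parent_37 was highest and G14_37 lowest, and no 2 groups overlapped. Its log2 fold change in G14_37 vs. Parent_37 was -1.74 ± 0.13 (SE, adjusted p = 8.60e-07). PAS_chr2-2_0301, with CCHC zinc fingers and described as similar to human CNBP, was at 608, 619 and 691 FPKM in Parent_30, at 323, 376 and 413 in Parent_37, at 529, 505 and 566 in G14_30 and at 884, 529 and 416 in G14_37. It was lower in Parent_37 than in Parent_30 (-0.79 ± 0.23 SE, adjusted p = 0.011), and G14_37 replicate 1 was the highest library of all.

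Of the 11 members with another described function, 2 were called at 37 °C and 2 in the difference in heat response, 18.2% in each case, against 21.7% and 15.4% of all transcripts. Without them, 77 members remained, with 11 up and 2 down in the parent heat response, 5 up and 3 down in that of G14, 4 up and 5 down at 30 °C, 7 up and 13 down at 37 °C, and 2 up and 11 down in the difference in heat response. The 53 genes with a DNA-binding domain label that the pattern missed had 10 upregulated and 3 downregulated in Parent_37 vs. Parent_30, which is 18.9% and 5.66% against 14% and 7.56% of all transcripts. In G14_37 vs. Parent_37 they had 3 upregulated and 10 downregulated, 5.66% and 18.9% against 7.42% and 14.3%. In the difference in heat response they had 1 up and 6 down, 1.89% and 11.3% against 4.31% and 11.1%. Their median level was 35.1 FPKM, below the 64.4 FPKM of the members.

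Values next to the threshold were common. In Parent_37 vs. Parent_30, PAS_chr1-3_0098 (1.04) and PAS_chr3_0590 (1.08) lay just inside and PAS_chr3_0894 (0.95) just outside. In G14_30 vs. Parent_30, MSN4 (-0.95) and PAS_chr3_0092 (-0.93) lay just outside. In the difference in heat response, PAS_chr1-3_0170 (-1.001) and PAS_chr3_0894 (-1.03) lay inside, and PAS_FragB_0066 (0.99) and PAS_chr4_0271 (0.96) outside. Of the 13 members called in the parent heat response, 10 were called without each single library in turn, as were 5 of 8 in G14, 6 of 10 at 30 °C, 19 of 22 at 37 °C, 11 of 12 in G14_37 vs. Parent_30 and 10 of 15 in the difference in heat response.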

How the data were processed

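RNA of 12 libraries, 3 for each of 4 groups, was sequenced. The deposited table holds FPKM per gene and library. Per the labels and the submitters' processing notes, the authors used CASAVA, HISAT2 2.0.5 and featureCounts 1.5.0-p3; whether counting used strand is not given in the sources used here. Fragments recovered from FPKM, length and library total were whole for all values within 0.05, and set the depth (13428637 to 22047040 per library).

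The FPKM values were taken to log2 with a pseudocount of 1 and fitted with limma 3.58.1 (R 4.3.3, trend, 4 group means, 8 residual degrees of freedom) over 5080 transcripts; Python 3.11.15 (numpy 2.4.6, pandas 2.3.3, matplotlib 3.10.9) made summaries and figures. The difference in heat response is the interaction of strain and temperature. The filter of a mean of at least 1 FPKM removed 0 transcripts. The script was tested on simulated data. Nothing shows that replicates of a group were separate cultures beyond the study's wording, so p values measure the spread between these libraries.

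The members and lists were chosen with earlier results of these data known. Named were the transcription factors of the supplementary list, per contrast up to 6 called members in each direction with the largest change, the 5 highest and 3 lowest members, and up to 4 members per role or family. PAS_chr1-3_0098, PAS_chr2-1_0033, PAS_chr2-1_0404, PAS_chr3_0092, PAS_chr3_0582 and PAS_chr3_0894 were named after their values were seen, as were the neighbouring genes and the proteasome list. Alternatives were a pseudocount of 0.1, no filter, a mean of at least 10 FPKM, TPM scaling, limma voom on the recovered fragments, a replicate block, a fit restricted to the libraries of a contrast, and leaving out each library. Counts without the 11 members of another described function were added after seeing the data.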

Additional observations from a re-analysis of the deposited data

Results flagged for a closer look

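These 15 members were picked out because the response to 37 °C differed between G14 and the parent by the interaction test of limma (adjusted p under 0.05 and absolute log2 difference over 1). Values are the response in G14 minus that in the parent, on the log2 scale. Among regulators with a described pathway, the difference was -2.73 in the unfolded protein response factor PAS_chr1-1_0381, -2.07 in the nitrogen catabolite repression regulator PAS_chr2-1_0490, -1.60 in the proteasome gene activator PAS_chr3_0689, -1.54 in the pheromone response factor PAS_chr4_0468 and 2.03 in the activator of proline utilization PAS_chr2-1_0329. Among members described by a fold or a single target, it was -1.78 in the inhibitor of HO PAS_chr3_0418, -1.64 in the zinc finger gene PAS_chr4_0104, -1.21 in the bHLH gene PAS_chr1-1_0371, -1.11 in the homeodomain repressor PAS_chr3_0590, -1.03 in the zinc finger gene PAS_chr3_0894 and -1.001 in the zinc finger gene PAS_chr1-3_0170. The unspecified factors PAS_chr1-3_0099 and PAS_chr3_0393 had -1.62 and 1.25. The TATA-binding protein PAS_chr1-4_0183 had -1.12 and the polyadenylation factor component PAS_chr1-1_0249 had -1.11. No group had the 4 or more libraries that a test for single outlying libraries needs.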

How the results depend on the processing

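Of the recomputed counts of members called in one direction, 227 stayed within 1.5 times the reported count and 11 did not. With TPM scaling, 3 members were downregulated in G14_30 vs. Parent_30, 15 were upregulated in G14_37 vs. Parent_37 and 15 in G14_37 vs. Parent_30, and 6 were up in the difference in heat response. A fit of the G14 groups alone, which has fewer libraries, gave 0 up and 1 down in G14_37 vs. G14_30, and for the difference in heat response no such fit was possible. Leaving out single libraries gave 2 to 8 up in G14_37 vs. G14_30 and 2 to 6 up in the difference in heat response, where the down count ran from 11 to 13. Other ranges were 8 to 11 up in the parent heat response, 3 to 4 up and 4 to 6 down at 30 °C, and 6 to 9 up and 14 to 18 down at 37 °C.

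For the calls of the 32 members with at least 1 call, and for HSF1, MSN4 and YAP1 in all 6 contrasts, 1732 recomputed values kept their direction and side of the threshold, 60 lost the call, 1 gained it and 10 changed sign, in genes with small changes. With TPM scaling HSF1 had 0.17 in G14_30 vs. Parent_30, 0.21 in G14_37 vs. Parent_37 and 0.042 in the difference in heat response, and YAP1 had 0.10 in G14_30 vs. Parent_30. Leaving out single libraries gave HSF1 values from -0.087 to 0.028 in G14_30 vs. Parent_30 and from -0.14 to 0.0085 in the difference in heat response. It gave MSN4 values from -0.13 to 0.62 in G14_37 vs. Parent_30 and from -0.30 to 0.44 in the difference in heat response, the lowest of both without G14_37 replicate 1. The cause was not tested.

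The fit with the replicate block gave the same numbers of calls in all 6 contrasts, for example 11 up and 2 down in the parent heat response. The deviations of same-numbered libraries correlated at -0.22 to 0.67, over 0.1 in 8 of 18 pairs. The highest were between Parent_30 and G14_30, at 0.61 for replicate 1 and 0.67 for replicate 3. The main fit did not pair the libraries, and whether same-numbered libraries were handled together was not tested. Depth was not limiting for the members, with at least 59 fragments in every library, while 3 libraries a group limit what can be called, and G14_37 replicate 1 widens the spread in the fit.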
